A study of Mus musculus with 36 samples.

Results

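The genes described here are 10 of the 29883 in a bulk RNA sequencing count table of cultured mouse cells: the 4 Id genes (Id1, Id2, Id3, Id4), the inhibitory Smads Smad6 and Smad7, the receptors Bmpr1a, Bmpr2 and Tgfbr1, and the ligand Bmp4. They were taken by gene symbol. Id1 and Id3 were chosen by their counts in macrophages, which were lower 24 h after myelin than at 0 h. The study asked how macrophages that take up myelin and glioblastoma cells affect each other. Co-cultured macrophages, mono-cultured macrophages, co-cultured tumour cells and mono-cultured tumour cells were each sampled at 0 h, 6 h and 24 h after myelin was added, which makes 12 groups of 3 libraries. The macrophages were grown from bone marrow. The tumour cells were 1 line from a recurrent tumour of the PDG-Ink4a model, in which PDGFB is expressed in Nestin-positive progenitor cells of mice that lack Ink4a/Arf, so they stand for a single line. The 0 h libraries are labelled control, and the labels do not say whether those cultures were kept as long as the 24 h ones, so myelin and time in culture cannot be told apart.

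Bone morphogenetic proteins (BMPs) and TGF-beta are secreted ligands that bind pairs of type I and type II receptors at the cell surface. The activated type I receptor phosphorylates Smad proteins, Smad1, Smad5 and Smad9 on the BMP side and Smad2 and Smad3 on the TGF-beta side, which enter the nucleus with Smad4 and switch on target genes. Among the best known targets are the Id genes, whose products bind E proteins and keep them off DNA, and Smad6 and Smad7, whose products block the receptors and so close a negative feedback loop. Id2 is also known as a regulator of myeloid and lymphoid cell fate.

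RefSeq gave promoter windows, from 250 bases before to 50 bases after the transcription start, for 8 of the 10 members; Id1 and Smad7 had no entry. The windows below, on GRCm38.p6, are those of Id3 and Smad6, which lay lower in macrophages at 24 h, and of Id2, which did not. Capitals mark GTCT or its complement AGAC, the short sequence that Smad proteins contact, and GGCGCC, a GC-rich sequence bound by Smad1 and Smad5, searched on both strands.
Id3 (chr4:136143572-136143871, plus strand): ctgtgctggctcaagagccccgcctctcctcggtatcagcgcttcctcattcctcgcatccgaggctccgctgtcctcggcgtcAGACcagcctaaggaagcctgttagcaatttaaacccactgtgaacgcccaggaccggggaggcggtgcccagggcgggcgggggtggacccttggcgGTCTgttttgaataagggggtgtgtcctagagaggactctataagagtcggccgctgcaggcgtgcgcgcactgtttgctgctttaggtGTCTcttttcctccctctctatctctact
Smad6 (chr9:64022010-64022309, minus strand): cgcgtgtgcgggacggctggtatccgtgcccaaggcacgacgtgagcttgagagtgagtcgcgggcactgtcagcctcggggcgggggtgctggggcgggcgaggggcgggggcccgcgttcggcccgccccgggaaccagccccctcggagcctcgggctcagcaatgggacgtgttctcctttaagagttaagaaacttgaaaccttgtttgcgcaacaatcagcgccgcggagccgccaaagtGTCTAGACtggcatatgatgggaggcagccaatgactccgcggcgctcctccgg
Id2 (chr12:25096043-25096342, minus strand): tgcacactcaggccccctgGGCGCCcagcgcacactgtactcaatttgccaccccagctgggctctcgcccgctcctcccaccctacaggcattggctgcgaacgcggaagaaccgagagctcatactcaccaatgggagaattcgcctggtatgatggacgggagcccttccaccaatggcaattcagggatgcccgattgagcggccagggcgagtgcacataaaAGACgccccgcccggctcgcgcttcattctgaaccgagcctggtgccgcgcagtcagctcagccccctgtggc
GTCT occurred 3 times in the Id3 window, 2 times in that of Smad6 and 1 time in that of Id2. These 4 letters are found in 88% of the 32851 mouse promoter windows of that length. The 2 copies of Smad6 lie back to back across the start site and form the palindrome GTCTAGAC, noticed only once the sequence was read, which 0.213% of all windows hold. GGCGCC was present once in the Id2 window and absent from the other 2 shown, against 11.9% of all windows. It also occurred in the windows of Id4, Bmpr1a and Bmpr2 and in 1 of the 2 windows of Tgfbr1. Such matches describe letters and do not show binding.

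Library totals ran from 7911378 to 15319104 counts. Macrophage markers were high in macrophages, with 12450 to 15480 CPM (counts scaled to library size with TMM factors) summed over 10 genes in mono-culture at 0 h, against 18.5 to 308.9 CPM in tumour cells. In single mono-cultured tumour cell libraries the sum reached 1044 CPM at 6 h and 1560 CPM at 24 h. Macrophage RNA was estimated at up to 2.18% of such a library, in number 003 at 24 h. From a set of 20 marker genes the estimate for that library was 0.853%. Of the glioma markers, Sox2, Pdgfra and Sox9 marked the tumour cells. Nes did not, with 24.0 to 87.6 CPM in macrophages against 8.47 to 41.97 CPM in tumour cells, nor did Vim, with 2905 to 5755 CPM in macrophages against 2984 to 4888 CPM in tumour cells, while Gfap stood at 0.375 CPM or less in every library. Fibroblast and mural markers summed to 10540 to 18120 CPM in mono-cultured tumour cells at 0 h, with Col1a1 at 6958 CPM or more in every tumour library. Co-cultured macrophages held tumour cell RNA, estimated from 50 marker genes at 2.24% ± 1.10 at 0 h, 1.90% ± 1.25 at 6 h and 4.72% ± 0.07 at 24 h (SD, n = 3 each), against 0.0254% or less on average in mono-culture. The library numbers 001 to 003 in the labels are not said to mark separate animals, although the macrophage libraries numbered 001 lacked Xist and held Ddx3y while the others held Xist. The p-values below therefore measure the spread between these libraries. In macrophages that spread includes this difference in sex-linked genes between 001 and the others, and the rest may be technical. In bulk RNA, fewer cells of a type and less RNA per cell cannot be told apart. Values of 3 libraries are given in the order 001, 002, 003.

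In macrophages the Id family held 3 detected members. Id1, an inhibitor of E proteins known as a direct BMP target (mm10 chromosome 2, 152736251 to 152737410), had 23.0, 20.9 and 16.4 CPM at 0 h in co-culture, 13.5, 21.5 and 14.6 CPM at 6 h and 4.24, 6.62 and 3.84 CPM at 24 h. In mono-culture its libraries held 9.96, 13.6 and 8.29 CPM at 0 h, 3.80, 12.1 and 7.53 CPM at 6 h and 0.401, 2.34 and 0.248 CPM at 24 h. The 24 h libraries of either culture lay below all of its 0 h and 6 h libraries. The mono-culture values at 24 h rest on 4, 33 and 3 counts, so library 002 sets most of their mean, and without it the 24 h change of Id1 in mono-culture given below is -5.03 in place of -3.30. Id3, its close relative (chromosome 4, 136143497 to 136145755), had 24.9, 20.5 and 17.9 CPM at 0 h in co-culture, 10.9, 14.3 and 11.0 CPM at 6 h and 5.59, 3.52 and 3.14 CPM at 24 h. Mono-cultured libraries held 29.0, 36.1 and 21.5 CPM of Id3 at 0 h, 14.6, 23.4 and 12.0 CPM at 6 h and 1.10, 4.40 and 3.15 CPM at 24 h. Its 3 times did not overlap in co-culture, while 0 h and 6 h overlapped in mono-culture.

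The change at 24 h chose Id1 and Id3, so it is described here without a test for any member. Id1 differed at 24 h by -2.02 ± 0.44 (log2 change ± SE) in co-culture and -3.30 ± 0.54 in mono-culture, and Id3 by -2.38 ± 0.35 and -3.27 ± 0.37. Smad6, which preferentially blocks BMP receptors (chromosome 9, 63953076 to 64022059), had 1.99, 1.55 and 0.784 CPM at 24 h against 3.15, 3.84 and 3.25 CPM at 0 h in co-culture. In mono-culture Smad6 had 0.602, 0.213 and 0.745 CPM at 24 h, from 6, 3 and 9 counts, against 1.88, 3.43 and 1.47 CPM at 0 h. Smad7, which blocks both TGF-beta and BMP receptors, had 12.5, 12.6 and 13.8 CPM at 24 h against 22.4, 23.8 and 23.4 CPM at 0 h in co-culture. Its mono-cultured libraries held 8.82, 9.66 and 7.37 CPM at 24 h against 11.8, 20.0 and 12.2 CPM at 0 h. All 24 h libraries lay below all 0 h libraries for both genes in both cultures, with a Smad6 change of -1.25 ± 0.44 in co-culture and -2.15 ± 0.50 in mono-culture, and a Smad7 change of -0.84 ± 0.16 and -0.78 ± 0.17. Over all 13165 genes this contrast called 11.4% in co-culture and 15.2% in mono-culture at an adjusted p under 0.05; without 1 library the count ran from 664 to 1385 genes in co-culture, against 1502 with all 6, and from 772 to 2315 in mono-culture, against 1998. The other tested members, Id2, Bmpr1a, Bmpr2 and Tgfbr1, had log2 changes between -0.36 and 0.35 in co-culture and between -0.07 and 0.32 in mono-culture.

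**Figure D1:**
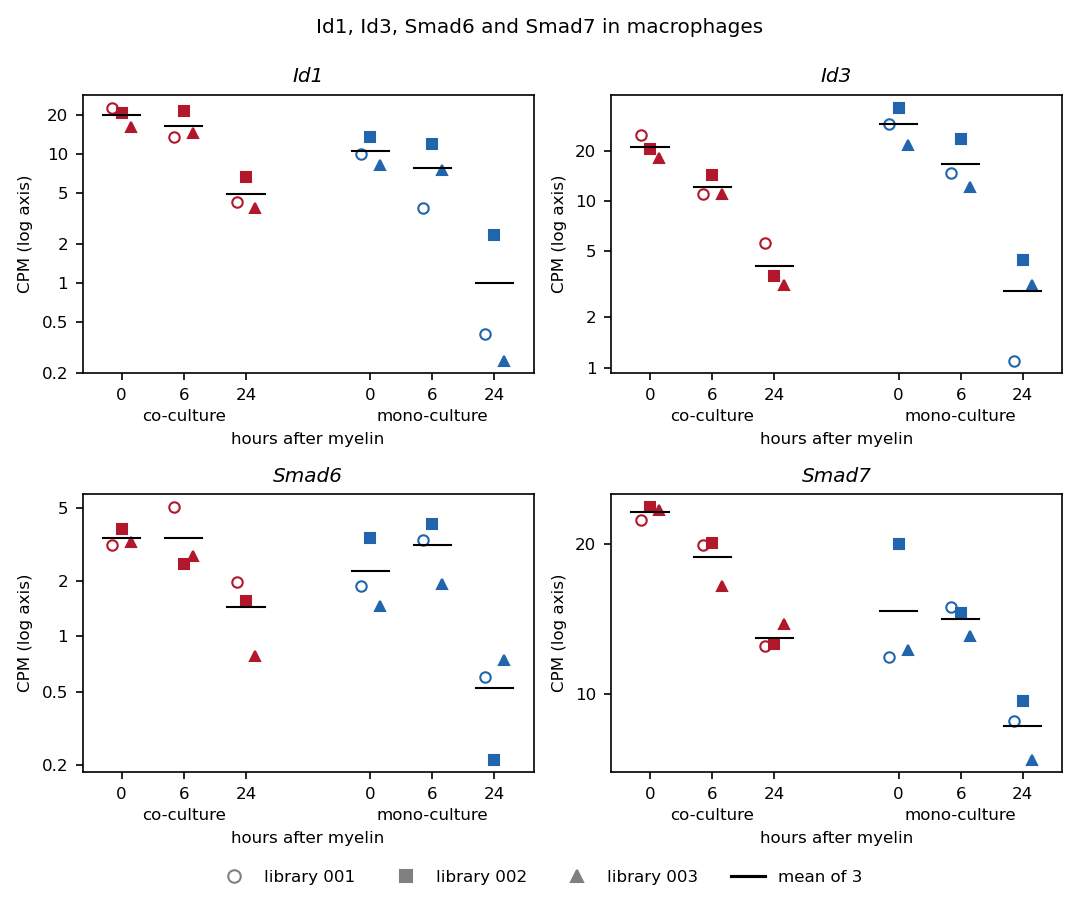
Levels of Id1, Id3, Smad6 and Smad7 in macrophages in CPM on a log axis, by hours after myelin, in co-culture (red) and mono-culture (blue). Each symbol is 1 library, its shape gives the library number, and the bar is the mean of 3; for each gene the 24 h libraries lie below the 0 h libraries of the same culture.

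Tumour cell RNA was estimated to make up unequal parts of these levels in co-cultured macrophages at 24 h. Such an estimate can exceed the measured level, as it did on average for the collagen gene Col1a1, at 402.6 CPM against 320 CPM. For Id3, the share of tumour RNA times the tumour cell level came to 4.66, 1.90 and 2.09 CPM, set against measured levels of 6.11, 3.93 and 3.50 CPM on the scale of all 36 libraries. That is 76.3%, 48.4% and 59.7% of the Id3 level. For Id1 the same product was 0.359, 0.284 and 0.332 CPM of 4.63, 7.39 and 4.29 CPM, and for Smad7 it was 1.03 to 1.33 CPM of 13.6 to 15.4 CPM. Smad6 had a product of 0.524 CPM in library 001 against a level of 2.17 CPM, and 0.145 CPM or less in the others. The product was thus at least 48.4% of the Id3 level in each library, and at most 7.75% of the Id1 level and 9.17% of the Smad7 level. At 0 h the Id3 product was 0.852 CPM or less of 19.4 to 25.7 CPM.

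**Figure D2:**
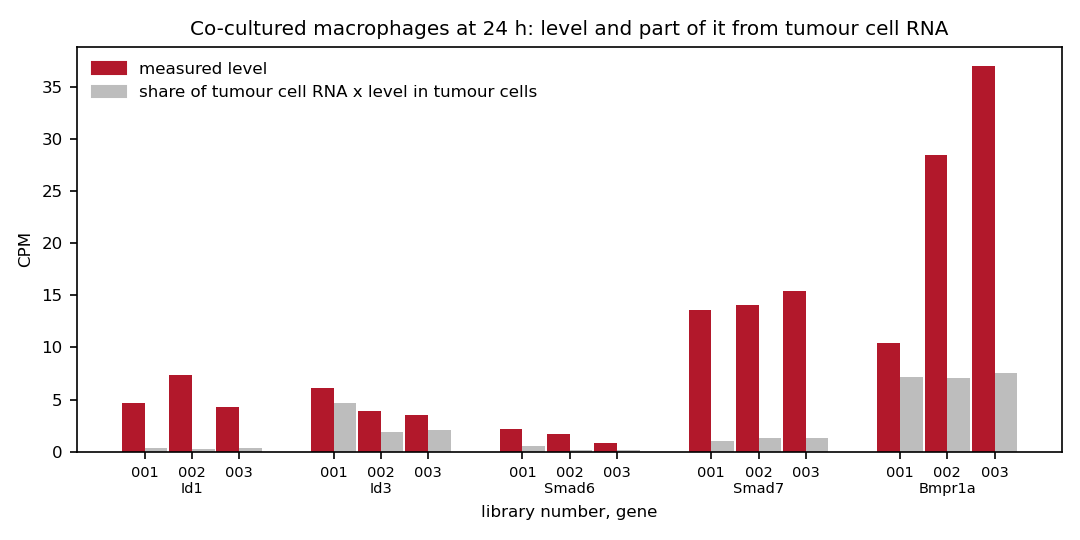
Measured level (red bars) and the product of tumour cell RNA share and tumour cell level (grey bars), both in CPM on the scale of all 36 libraries, for 5 members in each co-cultured macrophage library at 24 h. The grey bar reaches 76.3% of the red bar for Id3 in library 001 and 68.6% for Bmpr1a in that library.

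At 6 h no member passed the test in macrophages, and the values of Id2 came closest. Id2 had 281, 211 and 251 CPM at 6 h against 147, 147 and 171 CPM at 0 h in co-culture (log2 change 0.68 ± 0.14, adjusted p = 0.0603 by edgeR quasi-likelihood). In mono-culture it had 191, 194 and 222 CPM at 6 h against 157, 144 and 123 CPM at 0 h (0.52 ± 0.14, adjusted p = 0.0765). The groups did not overlap in either culture, yet neither change passed the threshold. With the library number as a block Id2 passed in co-culture (0.68 ± 0.14, adjusted p = 0.0313) and not in mono-culture (adjusted p = 0.0557). The difference of its 6 h change between the cultures was 0.16 ± 0.20 (adjusted p = 1.00). By 24 h Id2 stood at 129, 193 and 195 CPM in co-culture and at 135, 136 and 133 CPM in mono-culture. No tested member of 8 passed at 6 h by edgeR in either culture, where 0.213% of all genes passed in co-culture and 2.15% in mono-culture. Those counts turned on single libraries, with 0 to 8 genes in co-culture without 1 library, against 28 with all 6, and 25 to 547 in mono-culture, against 283. In co-culture 3 members and in mono-culture 2 had an unadjusted p under 0.05, and DESeq2 called 1 member in each. Both counts of unadjusted p include Id3. Id3 differed at 6 h by -0.80 ± 0.32 in co-culture and -0.78 ± 0.31 in mono-culture, described only, since its 0 h libraries helped to choose it.

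Among receptors in macrophages, Tgfbr1, the type I receptor of TGF-beta, had 366, 368 and 399 CPM at 0 h in co-culture, 312, 277 and 333 CPM at 6 h and 304, 278 and 302 CPM at 24 h. Mono-cultured libraries held 226, 269 and 288 CPM at 0 h, 286, 334 and 300 CPM at 6 h and 257, 325 and 343 CPM at 24 h. The co-cultured 0 h group stood above every other group, each of which overlapped its neighbours in the order of means. The 6 h change of Tgfbr1 differed between the cultures by -0.53 ± 0.16, which did not pass over all genes (adjusted p = 1.00, unadjusted p = 0.00428), and no gene of the 13165 passed that test (0% called, 332 at an unadjusted p under 0.05, 1 by DESeq2). Bmpr2, the type II BMP receptor, ranged from 82.9 to 158 CPM in macrophages, with all 6 groups overlapping their neighbours in order of level. Its counts overlap by annotation with Gm38125, which held at most 14 counts in a library.

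Bmpr1a, a type I BMP receptor, varied more between library numbers than between groups. Macrophage libraries 001 held 6.83, 5.38 and 9.56 CPM at 0 h, 6 h and 24 h in co-culture and 2.60, 2.74 and 4.11 CPM in mono-culture. Libraries 002 and 003 held 21.2 to 33.1 CPM in co-culture and 19.0 to 29.1 CPM in mono-culture. The 6 libraries 001 thus lay below the other 12. They were also the libraries without Xist, and CT010467.1, a single annotated gene, took 4.08% to 17.4% of their counts, against 0.391% to 1.22% in the other 12; the part of either in the split was not tested. In tumour cells Bmpr1a showed no such split, with 138 to 174 CPM in libraries 001 and 137 to 176 CPM in the others. There CT010467.1 took 0.267% of counts in co-culture library 001 at 6 h and 2.13% to 13.4% in the other libraries 001. Tumour cell libraries 002 and 003 held 0.279% to 2.20% of it. Within a number, Bmpr1a in macrophages lay higher in co-culture than in mono-culture in 3 of 3 numbers at each time. It also lay higher at 24 h than at 0 h in 3 of 3 numbers in both macrophage cultures. The product of tumour RNA share and tumour level came to 7.16, 7.08 and 7.51 CPM in the co-cultured libraries at 24 h, of 10.4, 28.5 and 36.95 CPM on the scale of all 36 libraries. Mono-culture held 4.06, 24.9 and 30.6 CPM on that scale, so the product exceeded the difference between the cultures in each number. At 0 h it came to 1.89, 4.76 and 2.63 CPM. Levels there were 7.04, 23.1 and 27.1 CPM in co-culture against 2.45, 19.5 and 23.7 CPM in mono-culture. The 0 h product thus exceeded the difference in number 002 only. The spread between numbers gave Bmpr1a a standard error of 0.83 to 0.85 in each comparison of 2 macrophage groups without the block, so a change of the size seen in Smad7 was not detectable for it in that fit. With the number as a block the standard error was 0.20 to 0.21 and the comparison of the cultures still did not pass, at 0.32 (adjusted p = 0.319) at 0 h, 0.19 (adjusted p = 0.576) at 6 h and 0.36 (adjusted p = 0.175) at 24 h.

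**Figure D3:**
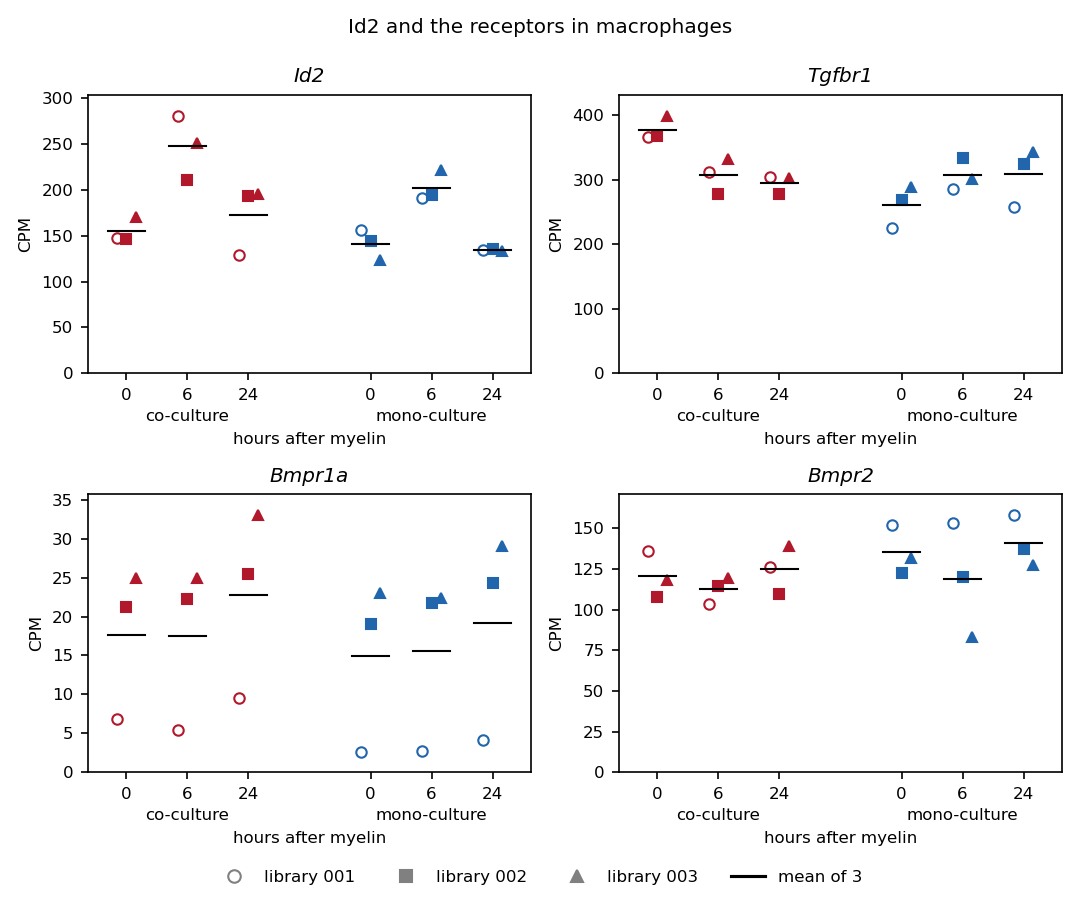
Levels of Id2, Tgfbr1, Bmpr1a and Bmpr2 in macrophages in CPM from 0, by hours after myelin, in co-culture (red) and mono-culture (blue); each symbol is 1 library and the bar is the mean of 3. Bmpr1a libraries 001 (open circles) stand between 2.60 and 9.56 CPM, below all libraries 002 and 003.

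Of the inhibitory Smads in macrophages, Smad7 passed as higher in co-culture at 0 h and 24 h and Smad6 at 24 h, each a call that some single libraries decided. Smad7 was higher in co-cultured macrophages at 0 h, with 22.4, 23.8 and 23.4 CPM against 11.8, 20.0 and 12.2 CPM in mono-culture (0.64 ± 0.16, adjusted p = 0.0143). At 24 h it was again higher, with 12.5, 12.6 and 13.8 CPM in co-culture against 8.82, 9.66 and 7.37 CPM in mono-culture (0.59 ± 0.17, adjusted p = 0.0171). At 6 h its 19.9, 20.1 and 16.4 CPM in co-culture lay above 14.9, 14.5 and 13.1 CPM in mono-culture without passing (0.41 ± 0.16, adjusted p = 0.139). Smad6 passed at 24 h, with 1.99, 1.55 and 0.784 CPM in co-culture against 0.602, 0.213 and 0.745 CPM in mono-culture (1.48 ± 0.51, adjusted p = 0.0410), on counts of 22, 22 and 10 against 6, 3 and 9. Tgfbr1 passed at 0 h (0.53 ± 0.11, adjusted p = 0.00483) and had changes of 0.00 ± 0.11 at 6 h and -0.07 ± 0.11 at 24 h. In the order of time, this comparison called 13.7%, 9.94% and 28% of all genes tested. Leaving Id1 and Id3 aside, 2 of 6 tested members passed at 0 h and 2 of 6 at 24 h, the second a share near its background. Id2 at 24 h did not pass (0.36 ± 0.14, adjusted p = 0.0717), and without co-culture library 001 it did (0.54, adjusted p = 0.00406).

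Not every one of these calls outlived the loss of a library. Smad7 at 0 h did not pass without co-culture library 002 (0.62, adjusted p = 0.0559), mono-culture library 001 (0.52, adjusted p = 0.0683) or mono-culture library 003 (0.51, adjusted p = 0.0797). At 24 h it did not pass without co-culture library 003 (0.54, adjusted p = 0.0573) or mono-culture library 003 (0.49, adjusted p = 0.0733). Smad6 at 24 h lost its call without co-culture library 001 (1.20, adjusted p = 0.130) or 002 (1.41, adjusted p = 0.101) and without mono-culture library 001 (1.61, adjusted p = 0.0734) or 002 (1.07, adjusted p = 0.142). With only the groups compared, Smad7 did not pass at 0 h (adjusted p = 0.0617) nor Smad6 at 24 h (adjusted p = 0.0796). Tgfbr1 at 0 h passed with any 1 library left out, with adjusted p between 0.00675 and 0.0233.

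Id1 and Id3 were each compared between the macrophage cultures, and the 2 genes were not tested against each other. Id1 lay higher in co-culture at every time without overlap, by 0.91 ± 0.42 at 0 h, 1.03 ± 0.43 at 6 h and 2.19 ± 0.57 at 24 h. The 6 h libraries took no part in choosing Id1, and there the change did not pass (adjusted p = 0.156); the values at 0 h and 24 h are described only. Without mono-culture library 002 the 24 h difference of Id1 was 3.91 ± 0.65. Id3 differed by -0.46 ± 0.31 at 0 h and 0.44 ± 0.40 at 24 h, where the tumour RNA product of 1.90 to 4.66 CPM was larger than the gap between the means, 4.08 CPM in co-culture against 2.88 CPM in mono-culture. It differed by -0.48 ± 0.32 at 6 h, where it did not pass (adjusted p = 0.407). No tested member passed at 6 h by edgeR quasi-likelihood, 2 of 8 had an unadjusted p under 0.05 and DESeq2 called 0 members. Ordered by mean level, Id1 in macrophages ran from co-culture at 0 h, with 20.1 CPM, through co-culture at 6 h, mono-culture at 0 h, mono-culture at 6 h and co-culture at 24 h to mono-culture at 24 h, with 0.998 CPM. Neighbours in that order overlapped apart from the last pair.

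**Figure D4:**
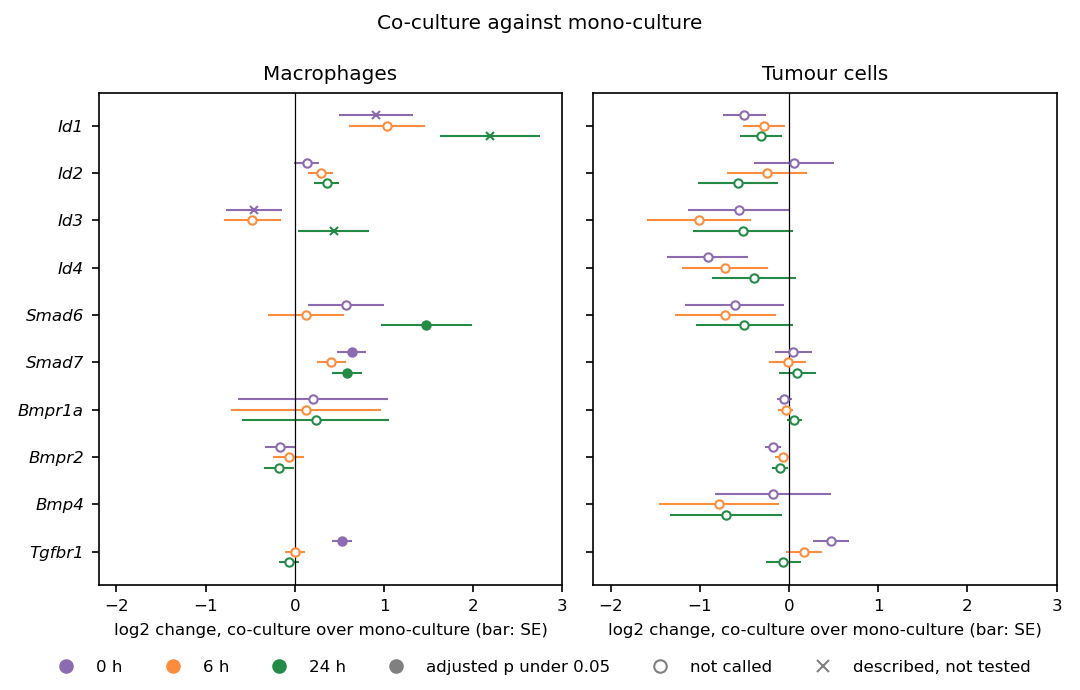
Log2 change of co-culture over mono-culture for each tested member at 0 h, 6 h and 24 h, in macrophages (left) and tumour cells (right); bars are standard errors. Filled points passed at an adjusted p under 0.05 and open points did not, and crosses mark Id1 and Id3 where their own libraries chose them; no tumour cell point is filled.

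Across the 18 macrophage libraries, the log2 level of Id1 correlated with that of Smad7 at r = 0.88, of Id3 at r = 0.80 and of Smad6 at r = 0.75. Among 8590 genes compared, 107, 442 and 693 genes other than the members were more like Id1 than Smad7, Id3 and Smad6. The choice of Id1 and Id3 by their 24 h levels bears on all 3 correlations. The 8590 genes had a mean of at least 10 CPM or were members. Outside the members, the 5 most like Id1 began with Slc7a1 (r = 0.98), a cationic amino acid transporter, and Asns (r = 0.98), the asparagine synthetase. They were followed by Pold2 (r = 0.97), a DNA polymerase subunit, Msh3 (r = 0.96), a mismatch repair protein, and Lrp8 (r = 0.96), a lipoprotein receptor. These libraries share the culture and time groups, and the values are a description. In the 18 tumour cell libraries the 5 genes most like Id1 were Mex3d (r = 0.87), Csnk1g2, Flywch1, Mfge8 and Ubxn6 (r = 0.78), and Id3 correlated with Id1 at r = 0.32.

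In tumour cells Smad7 fell at 24 h in either culture. It had 39.4, 59.0 and 58.9 CPM at 0 h in co-culture, 35.0, 46.4 and 46.0 CPM at 6 h and 23.4, 28.1 and 29.4 CPM at 24 h. Mono-cultured tumour cells held 36.1, 59.2 and 56.9 CPM at 0 h, 34.4, 42.6 and 51.5 CPM at 6 h and 22.1, 27.4 and 26.4 CPM at 24 h. The 24 h libraries lay below all 0 h and 6 h libraries in both cultures. The change at 24 h was -0.96 ± 0.21 in co-culture (adjusted p = 0.0463) while in mono-culture Smad7 fell by 1.00 ± 0.21 (adjusted p = 0.00841), and the change differed between the cultures by 0.05 ± 0.29 (adjusted p = 1.00). Smad7 was the 1 member of 10 that passed, where 0.787% of all 13603 genes passed in co-culture and 10.5% in mono-culture. Without 1 library, the count over all genes ran from 0 to 621 in co-culture, against 107 with all 6, and from 537 to 1041 in mono-culture, against 1424. In mono-culture Smad7 passed with any library left out, with adjusted p between 0.00726 and 0.0414. In co-culture it passed without 0 h library 001 (adjusted p = 0.0158). It did not pass without 24 h library 001 (-0.85, adjusted p = 0.217), 002 (-0.99, adjusted p = 0.112) or 003 (-1.02, adjusted p = 0.118), or without 0 h library 002 (-0.86, adjusted p = 0.235) or 003 (-0.87, adjusted p = 0.232). With the library number as a block it was -0.95 ± 0.09 (adjusted p = 0.000378) in co-culture and -0.98 ± 0.09 (adjusted p = 2.70e-05) in mono-culture.

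Id3 and Bmp4 lay higher at 24 h in each library number of the tumour cells. Id3 had 106, 41.4 and 46.1 CPM at 24 h against 68.9, 17.6 and 20.4 CPM at 0 h in co-culture, and 113, 67.2 and 95.9 CPM at 24 h against 85.6, 36.0 and 36.6 CPM at 0 h in mono-culture. Number 001 stood above the others in each group, so the groups overlapped and the change did not pass without the block (0.86 ± 0.57, adjusted p = 0.530, in co-culture and 0.81 ± 0.57, adjusted p = 0.385, in mono-culture). Same-number tumour libraries varied together, and with the number as a block Id3 rose in co-culture (0.95 ± 0.25, adjusted p = 0.0292) and in mono-culture (0.93 ± 0.24, adjusted p = 0.0116). Bmp4, a ligand of Bmpr1a and Bmpr2, had 12.0, 4.46 and 4.53 CPM at 24 h against 9.50, 1.66 and 1.93 CPM at 0 h in co-culture. In mono-culture it had 14.8, 9.89 and 9.56 CPM at 24 h against 8.67, 3.80 and 2.32 CPM at 0 h. The groups overlapped in co-culture and not in mono-culture. The change of Bmp4 was 0.68 ± 0.64 (adjusted p = 0.671) in co-culture and 1.22 ± 0.64 (adjusted p = 0.240) in mono-culture. With the block Bmp4 rose in mono-culture (1.36 ± 0.31, adjusted p = 0.00509) and not in co-culture (0.81 ± 0.32, adjusted p = 0.127). Without the block, the difference of this change between the cultures did not pass (-0.53 ± 0.90, adjusted p = 1.00). In libraries 002 and 003 alone, Bmp4 passed in co-culture (1.33 ± 0.27, adjusted p = 0.00188) and in mono-culture (1.65 ± 0.23, adjusted p = 2.82e-05).

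**Figure D5:**
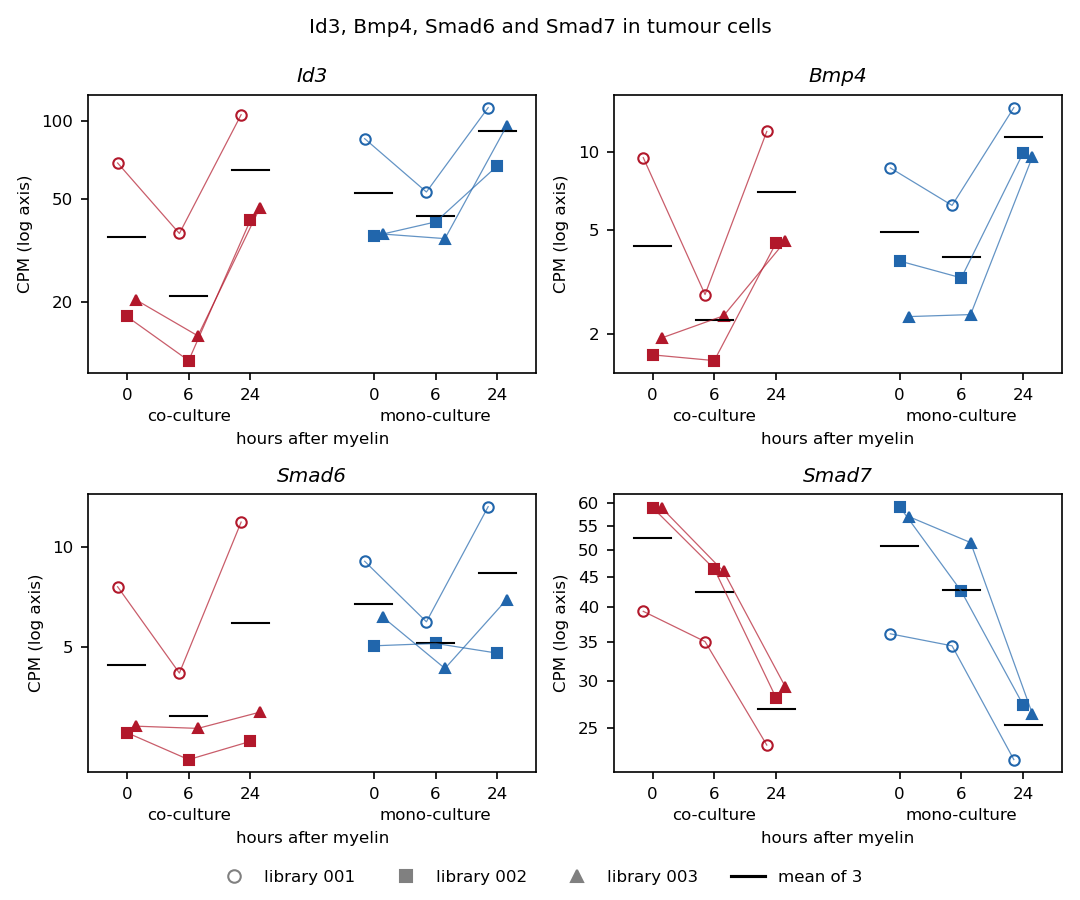
Levels of Id3, Bmp4, Smad6 and Smad7 in tumour cells in CPM on a log axis, by hours after myelin, in co-culture (red) and mono-culture (blue); lines join libraries of 1 number and bars are means of 3. Smad7 is lower at 24 h than at 0 h and Id3 and Bmp4 are higher in each number; number 001 (open circles) stands above the others for Id3, Bmp4 and Smad6 and below them for Smad7.

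The other members did not pass at 24 h in tumour cells over all 3 library numbers, with or without the block. Smad6 had 11.9, 2.60 and 3.18 CPM at 24 h against 7.60, 2.76 and 2.89 CPM at 0 h in co-culture, and 13.2, 4.79 and 6.95 CPM at 24 h against 9.07, 5.04 and 6.14 CPM at 0 h in mono-culture, so its libraries overlapped. Id1 stayed between 6.02 and 14.4 CPM over all 18 tumour cell libraries and Id2 between 4.75 and 20.6 CPM, with all 6 groups overlapping their neighbours in level. Id4, the Id family member best known from neural progenitors, stood at 0.501 to 2.08 CPM on 7 to 25 counts. In mono-culture it was lower at 24 h in 3 of 3 numbers, with 1.54, 0.773 and 0.507 CPM at 24 h against 1.77, 1.24 and 2.08 CPM at 0 h, without passing (-0.85 ± 0.45, adjusted p = 0.240). Bmpr1a ranged from 137 to 176 CPM and Bmpr2 from 206 to 276 CPM, with changes within 0.15 of 0 at 24 h in both cultures. At 6 h no member passed by edgeR in co-culture or mono-culture, where 0.0147% and 0.00735% of all genes passed; no member had an unadjusted p under 0.05 and DESeq2 called 0.

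Co-cultured and mono-cultured tumour cells did not differ in any member by edgeR at 0 h, 6 h or 24 h, where 0%, 0% and 0.0809% of all 13603 genes passed. At 0 h 1 member, Tgfbr1, had an unadjusted p under 0.05, at 6 h and 24 h none had, and DESeq2 called 0 members at each time. All genes at an unadjusted p under 0.05 numbered 698, 543 and 1804, and DESeq2 called 13, 0 and 436 genes. Id1, Id3 and Smad6 were lower in co-culture in each library number at each time. Id3, for example, had 36.8, 11.9 and 14.8 CPM in co-culture against 53.2, 40.8 and 35.2 CPM in mono-culture at 6 h (-1.01 ± 0.58, adjusted p = 0.953). In libraries 002 and 003 alone Id3 passed at 0 h (-0.94 ± 0.18, adjusted p = 0.00730), 6 h (-1.53 ± 0.19, adjusted p = 0.00123) and 24 h (-0.89 ± 0.15, adjusted p = 0.00191), and Smad6 passed with it, by -0.99 ± 0.24, -0.90 ± 0.25 and -1.02 ± 0.23. Number 001 showed differences of the same sign that were smaller for Id3 and for Smad6. Tgfbr1 had 27.3, 38.1 and 33.4 CPM in co-culture against 24.2, 22.3 and 24.9 CPM in mono-culture at 0 h (0.47 ± 0.20, adjusted p = 0.865). Macrophage RNA was estimated at 0.0225% to 2.33% of those co-cultured libraries. Its product with the macrophage level of Tgfbr1 came to 0.0847, 9.34 and 7.17 CPM, against 1.32 CPM or less in mono-culture. With 20 marker genes the estimates for these co-cultured libraries were lower, at 0.01875%, 1.028% and 0.817%. The products given here rest on the higher estimates. The 6 h and 24 h changes did not differ between the cultures for any member (0% of all genes called in each, 111 and 496 genes at an unadjusted p under 0.05, and 0 and 1 by DESeq2).

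Set against each other in mono-culture at 0 h, macrophages and tumour cells differed in each of the 8 members other than Id1 and Id3, where 70% of 14776 genes passed. Macrophages held more Id2 (141 CPM in macrophages against 11.3 CPM in tumour cells, 3.64 ± 0.36, adjusted p = 7.14e-10) and Tgfbr1 (262 CPM in macrophages against 22.8 CPM in tumour cells, 3.52 ± 0.19, adjusted p = 1.80e-15). Macrophages held less than tumour cells of Bmpr1a (15.2 CPM in macrophages against 144 CPM in tumour cells, -3.19 ± 0.66, adjusted p = 0.000130), Bmpr2 (135 CPM in macrophages against 244 CPM in tumour cells, -0.86 ± 0.13) and Smad7 (14.7 CPM in macrophages against 48.6 CPM in tumour cells, -1.70 ± 0.20). Smad6 was also lower in macrophages (2.26 CPM, against 6.46 CPM in tumour cells, -1.47 ± 0.52, adjusted p = 0.0135), a call lost without mono-cultured macrophage library 003 (adjusted p = 0.0809) or tumour cell library 001 (adjusted p = 0.0633). Bmp4 had 0 counts in all 9 mono-cultured macrophage libraries, and at 0 h it was at least 53.5-fold lower than the 4.49 CPM of tumour cells, taking 3 counts over the group as the limit (0.084 CPM, counting error only). Co-cultured macrophages held 0 to 4 counts of Bmp4. Id4 had 1 count in mono-cultured macrophages at 0 h and 58 in tumour cells. Id1 had 10.6 CPM in macrophages against 10.1 CPM in tumour cells (0.09 ± 0.37) and Id3 had 28.8 CPM in macrophages against 50.4 CPM in tumour cells (-0.80 ± 0.48), described only, since these macrophage libraries helped to choose both genes.

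The wider pathway was followed through 57 listed ligands, receptors, Smads, inhibitors, targets and E proteins, none of them members. In macrophages at 24 h against 0 h, 3 of 45 tested genes were higher and 6 lower in co-culture, and 2 were higher and 6 lower in mono-culture, against the 11.4% and 15.2% of all genes called in these contrasts. Named by size, the lower ones were Tgfb1 (-0.47), the ubiquitin ligase Smurf1 (-0.39) and Smad2 (-0.35) in co-culture and Tgfbi (-1.36), the activin receptor Acvr2a (-0.58) and the co-repressor Skil (-0.57) in mono-culture, as a description of the contrast that chose Id1 and Id3. In mono-culture the TGF-beta type II receptor Tgfbr2 was higher (0.35). Tumour cell RNA in co-cultured macrophages was estimated at 2.24% at 0 h and 4.72% at 24 h, and its part in the co-culture calls was not tested. At 6 h edgeR called 0 of the 45 in either culture, with 7 in co-culture and 6 in mono-culture at an unadjusted p under 0.05.

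Libraries of co-cultured macrophages held higher levels of many pathway genes than mono-cultured ones. These levels include the tumour cell RNA in the libraries, and its part in the calls was not tested. Of the 45 tested, 18 rose and 1 fell at 0 h, 14 rose and 1 fell at 6 h and 24 rose and 2 fell at 24 h, with list medians of 0.54, 0.28 and 0.49 against -0.02, -0.03 and -0.03 over all genes, of which 13.7%, 9.94% and 28% were called. The tumour RNA product came to at least 50% of the difference between the cultures for 11 of the 18 higher genes at 0 h, 10 of the 14 at 6 h and 16 of the 24 at 24 h, and to all of it for 2, 1 and 4 of them. Bmper, a BMP-binding secreted protein, for example held 3.97 CPM in co-culture against 0.0258 CPM in mono-culture at 0 h, with a product of 4.245 CPM. Among called genes with a mean of at least 10 CPM in either culture, Col1a1, Ccn2 and Pmepa1 had the largest log2 rises at 24 h. Some genes below that level had larger ones. Col1a1 is a matrix collagen, Ccn2 a secreted TGF-beta target and Pmepa1 a TGF-beta-induced inhibitor. These 3 stood at 320, 31.7 and 26.7 CPM in co-culture against 2.32, 1.05 and 1.69 CPM in mono-culture at 24 h. Tumour cells in co-culture at 24 h held 8532 CPM of Col1a1, 544 CPM of Ccn2 and 199 CPM of Pmepa1, and times the mean tumour RNA share these came to 402.6, 25.7 and 9.41 CPM, each level on its own cell type's scale. For Col1a1 and Ccn2 the product was thus close to the co-culture level or above it, and for Pmepa1 below it. Tgfbi, a TGF-beta-induced matrix protein singled out after its values were seen, had 2385 CPM in co-culture against 685 CPM in mono-culture at 0 h (1.80 ± 0.42, adjusted p = 0.00948), and its tumour RNA product was 1.01 CPM. The co-repressor Tgif1 fell at each time, by 0.31 at 0 h, 0.38 at 6 h and 0.56 at 24 h on the log2 scale, and Lemd3, a nuclear membrane protein that binds Smads, fell by 0.32 at 24 h.

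In tumour cells at 24 h the pathway genes that passed were lower. Over all 13603 genes, 0.787% passed in co-culture (65 higher, 42 lower) and 10.5% in mono-culture (498 higher, 926 lower). Of 49 pathway genes tested, 0 rose and 3 fell in co-culture, and 0 rose and 13 fell in mono-culture, with medians of -0.12 and -0.10 against -0.0023 and 0.0087 over all genes. In mono-culture these included Ccn2 (785 CPM at 24 h against 1646 CPM at 0 h, -1.07 ± 0.28). In co-culture they were Ccn2 (544 CPM at 24 h against 1387 CPM at 0 h, -1.35 ± 0.28), the homeobox gene Msx2 (-0.62 ± 0.14) and the activin subunit Inhba (-0.45 ± 0.09). By edgeR 0 passed at 6 h, with 6 in co-culture and 5 in mono-culture at an unadjusted p under 0.05, and 0 passed between the cultures, with 3, 1 and 4 at 0 h, 6 h and 24 h.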

How the data were processed

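Per the labels' protocols, RNA purified on spin columns was made into oligo-dT primed, template-switched libraries; that text covers several assays and mentions flow-sorted cells. The authors deposited a table of raw gene counts for 36 libraries, with genome build mm10 per the submitters' processing notes. The sources used here name no aligner or counting tool, and do not say whether strand was used. Members that overlap another annotated gene are Id4, Bmpr1a, Bmpr2 and Bmp4, whose partners held at most 14 counts in a library where listed.

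Counts were tested with edgeR 4.0.16 (robust quasi-likelihood, TMM, filterByExpr) in R 4.3.3, with the 18 libraries of a cell type in 1 fit (13165 genes in macrophages, 13603 in tumour cells) and all 36 in 1 fit for the comparison of cell types (14776 genes). The threshold was a Benjamini-Hochberg adjusted p under 0.05 over all genes of the fit. The standard error is the size of the log2 change divided by the square root of its F statistic. Id4 and Bmp4 were too low to be tested in macrophages. Correlations used log2 CPM with a prior count of 2.

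Same-number residuals of the groups compared were correlated, with 0.1 as the limit for pairing. The lowest value was between 0.264 and 0.667 in tumour cells and between 0.157 and 0.418 in the macrophage comparisons with 0 h and between cultures at 0 h. It was -0.02 and 0.07 between macrophage cultures at 6 h and 24 h, -0.06 for the 6 h difference and 0.06 between cell types.

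The members, the pathway lists and the rule for naming genes were chosen with earlier results of these data known. All members were described. Of the list genes, the text names up to 3 per direction, those with the greatest size among the called ones at a mean of at least 10 CPM in either group, and genes like Id1 as the 5 highest r with at least 10 CPM. Some genes this rule names are not reported here. Other settings tried were only the groups compared, DESeq2 1.42.0, no filter on low counts, RLE factors, the number as a block, libraries 002 and 003 alone, each library left out and 20 marker genes. The fit was tested on simulated data.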

Additional observations from a re-analysis of the deposited data

How the results depend on the processing

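The number of members called per comparison moved as follows. With the library number as a block, it was 1 in place of 0 in co-cultured macrophages at 6 h, 5 in place of 3 in them at 24 h (the contrast that chose Id1 and Id3, so these counts are described only), 1 in place of 0 between macrophage cultures at 6 h, and in tumour cells at 24 h 2 in place of 1 in co-culture and 3 in place of 1 in mono-culture. The call at 6 h between macrophage cultures was Id1 (1.05 ± 0.28, adjusted p = 0.0209), where the numbers do not pair the libraries. With only the groups compared, 5 members were called in co-cultured macrophages at 24 h, again described only, and 0 in co-cultured tumour cells at 24 h. Without the low-count filter, 1 was called in co-cultured macrophages at 6 h and 0 in co-cultured tumour cells at 24 h. DESeq2 called 1 in macrophages at 6 h in either culture. Libraries 002 and 003 alone called 1 member in macrophages at 6 h in either culture, 1 between macrophage cultures at 0 h and 1 at 24 h. In tumour cells these libraries called 1 in co-culture and 2 in mono-culture at 6 h, 5 in co-culture and 6 in mono-culture at 24 h, 4, 2 and 3 between the cultures at 0 h, 6 h and 24 h, and 1 for the difference of the 24 h change (Tgfbr1, -0.70 ± 0.15, adjusted p = 0.0148). In co-culture their product of macrophage RNA share and macrophage Tgfbr1 level was 9.34 and 7.17 CPM at 0 h. At 24 h it was 5.13 and 5.25 CPM. In mono-culture this product was 0.99 and 1.32 CPM at 0 h and 5.36 and 7.87 CPM at 24 h. These products rest on macrophage RNA shares that were lower with 20 marker genes in each of these libraries. The part of macrophage RNA in the Tgfbr1 call was not tested. Leaving out 1 library gave 1 to 2 members between macrophage cultures at 0 h, 2 to 3 at 24 h and 0 to 1 in co-cultured tumour cells at 24 h. The 2 to 3 at 24 h include Id1, which these macrophage libraries helped to choose and which is described only. Beyond these and the calls of Id2, Id3 and Bmp4 in the report, the block changed the side of the threshold of no member apart from Smad6 and Tgfbr1 in co-cultured macrophages at 24 h and Id1 between macrophage cultures at 0 h. Those 3 are described only, since they rest on libraries that helped to choose Id1 and Id3. The cause of these moves was not tested.

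Over all genes, the block gave 668 calls in place of 283 in mono-cultured macrophages at 6 h, 236 in place of 28 in co-culture, 2598 in place of 1502 in co-culture at 24 h and 2053 in place of 1308 between macrophage cultures at 6 h. In tumour cells it gave 28 in place of 2 in co-culture and 35 in place of 1 in mono-culture at 6 h, 1263 in place of 107 and 3793 in place of 1424 at 24 h, 162, 5 and 833 in place of 0, 0 and 11 between the cultures, and 28 in place of 0 for the difference of the 24 h change. For those tumour cell counts in the same order, libraries 002 and 003 alone gave 401, 832, 3038, 4828, 2121, 1232, 3248 and 598 calls, and 112 and 766 in macrophages at 6 h in co-culture and mono-culture. They also gave 8 and 2 calls in place of 0 for the difference of the 6 h change in macrophages and tumour cells. At 6 h in co-culture and mono-culture, DESeq2 gave 279 and 596 in macrophages and 24 and 34 in tumour cells, and it gave 429 in co-cultured tumour cells at 24 h, and 13 and 436 between tumour cultures at 0 h and 24 h. With only the groups compared, 56 and 17 genes passed in co-cultured and mono-cultured macrophages at 6 h, 1061 in mono-culture at 24 h, 741 between the cultures at 6 h, and 0 in tumour cells at 6 h, in co-culture at 24 h and between the cultures at 24 h. Without the filter, 842 passed in mono-cultured tumour cells at 24 h and 1 in co-culture at 6 h. With 20 marker genes tumour RNA in co-cultured macrophages at 24 h was 5.21%. Macrophage RNA in tumour cells was lower with 20 marker genes. Its group means at 0 h, 6 h and 24 h were 0.621%, 0.648% and 0.406% in co-culture, in place of 1.336%, 1.074% and 1.086%. In mono-culture they were 0.108%, 0.324% and 0.423%, in place of 0.269%, 0.849% and 1.264%. Counts under 10 in mono-cultured macrophages at 24 h, for Id1 in 2 libraries and for Smad6 in 3, limit precision there.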
